A study of Mus musculus with 45 samples.

Results

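The 9 genes described here are used by endothelial cells to receive signals and to hold to each other: the vascular receptor genes Kdr, Flt1, Nrp1, Tek and Tie1, the junction genes Cdh5 and Pecam1, the surface sialomucin gene Emcn and the transcription factor gene Sox18. They were chosen by name and make up 9 of the 18193 genes measured, or 16 of 45037 probe sets. Each gene is read from its probe set with the highest mean over all 45 arrays, and the further probe sets of Flt1, Nrp1 and Cdh5 serve as a check. RNA levels were measured on Affymetrix Mouse430 2.0 arrays, which carry several probes near the 3′ end of each transcript.

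The cells were murine embryonic stem cells (ESCs) of strain 129, labelled male, and the embryoid bodies (EBs) they formed. EBs are aggregates in which stem cells, grown here by hanging drop, differentiate into derivatives of all germ layers. There were 3 lines: cells labelled as silenced for Strip2 (KD), cells with a scrambled control (SCR) and wild-type cells (WT), each taken as undifferentiated ESCs and as EBs after 4, 8, 12 and 16 days, with 3 arrays in each of the 15 groups. The labels name no second clone of a line and do not say whether the arrays of a group came from different cultures. A p-value here therefore covers array-to-array spread alone, which may be technical.

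Endothelial cells arise from mesoderm that switches on the receptor KDR (VEGFR2), the main signalling receptor for VEGF-A. FLT1 (VEGFR1) binds the same ligand tightly and limits how much of it reaches KDR, and NRP1 is a co-receptor for VEGF-A and semaphorins. TEK (TIE2) is the receptor for angiopoietins and TIE1 its partner. VE-cadherin, the product of Cdh5, forms the adherens junctions between endothelial cells, PECAM1 lies at the same contacts, and SOX18 regulates early endothelial and lymphatic genes. Pecam1 is also transcribed in undifferentiated mouse ESCs, and Flt1 in yolk sac and trophoblast tissue.

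The median log2 signal of an array was 5.02 to 5.18, and the correlation over probe sets between arrays of a group was 0.9888 to 0.9961. Strip2 was dim in every group and was not lower in KD-labelled than in WT cells at any stage (KD minus WT of 0.02, 0.31, 0.18, 0.63 and 0.40 in ESCs and at days 4, 8, 12 and 16, called as higher at day 12, adjusted p = 0.0061), so every direction given for the KD-labelled line rests on its label. Strip2 was lower than in SCR EBs at days 12 and 16 (-0.92 and -1.56). At day 4 every KD-labelled array lay above every SCR array, at 2.91 to 3.14 against 2.54 to 2.62. In ESCs the means were 2.72 in KD-labelled and 2.85 in SCR cells, and at day 8 they were 3.18 and 3.14. The first 8-day array of each line bears an ESC tag in another label field. It was kept with the 8-day EBs of its title, and its correlation with the other 8-day arrays of its line was 0.9889 or more, against at most 0.9765 with the ESC arrays. The mean of 10 pluripotency markers, a check on the ESC label, was 11.49 to 11.54 in KD-labelled, 10.95 to 11.48 in SCR and 11.46 to 11.77 in WT ESC arrays.

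All levels below are log2 signals of a probe set and all differences are log2 differences of group means with the standard error (SE) of the model, unless a fold is named. A gene was called where the p of limma's moderated test, adjusted by Benjamini and Hochberg's method over the 18193 genes, was under 0.05. The levels of different probe sets cannot be set against each other. Since whole aggregates were measured, fewer cells of a type and less RNA per cell cannot be told apart.

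**Figure D1:**
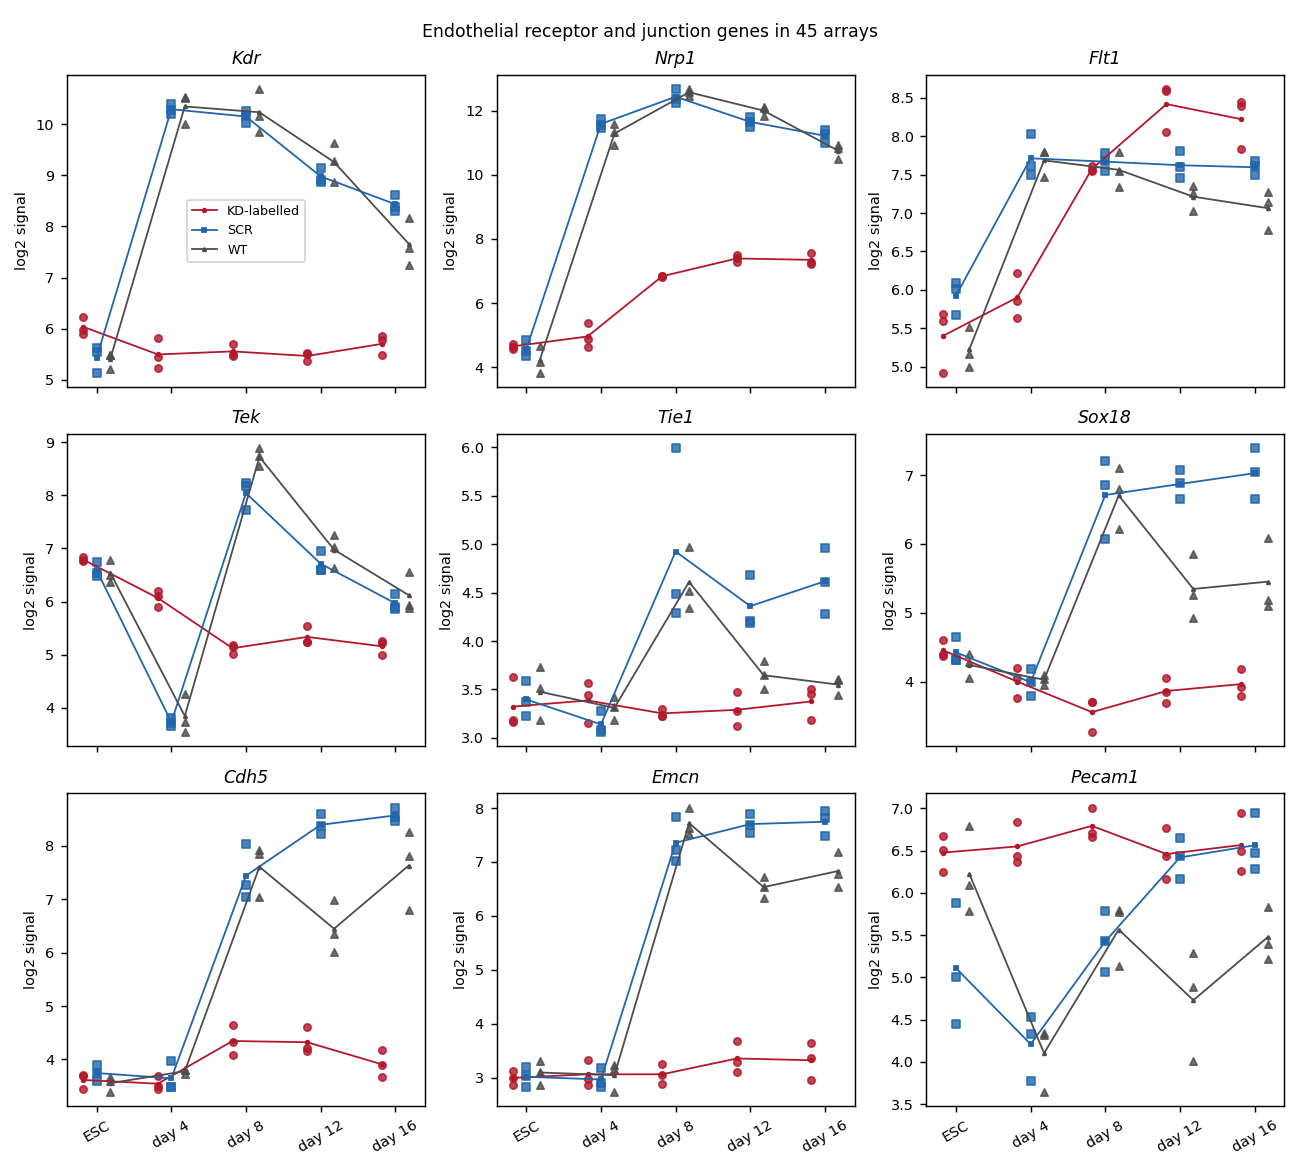
Log2 signal (y axis) of the 9 genes at each stage (x axis) in KD-labelled (red circles), SCR (blue squares) and WT (grey triangles) arrays; lines join the means of 3 arrays. The KD-labelled line lies below both controls from day 4 for Kdr and Nrp1 and from day 8 for Sox18, Cdh5 and Emcn, while Tie1 overlaps with WT again at day 16. Pecam1 is nearly level in the KD-labelled line, at group means of 6.46 to 6.79, and Flt1 has its highest mean there at day 12, against day 4 in the controls.

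In undifferentiated ESCs few of the 9 genes differed between lines. Between KD-labelled and SCR ESCs, 2 members were called higher and 1 lower, where 12.3% and 11.3% of all genes were called in these directions. Pecam1 stood at 6.51, 6.25 and 6.67 in KD-labelled ESCs, against 4.45, 5.00 and 5.88 in SCR and 6.09, 5.79 and 6.79 in WT ESCs. The KD-labelled values lay above all 3 SCR values and within the WT range. The difference was 1.37 against SCR (SE 0.31, adjusted p = 0.0008) and 0.25 against WT (SE 0.31, adjusted p = 0.66). Kdr was 0.60 above SCR (SE 0.2, adjusted p = 0.023) and Flt1 0.53 below it (a difference of -0.53, adjusted p = 0.043). Both of these calls rested on single arrays: Kdr stood at 0.45 without SCR array 3 (adjusted p = 0.15) and at 0.50 without KD array 3 (adjusted p = 0.12), and Flt1 at -0.29 without KD array 2 (adjusted p = 0.36), -0.44 without SCR array 1 (adjusted p = 0.17) and -0.48 without SCR array 3 (adjusted p = 0.12). Against WT, 1 member was called, Kdr, where 18.4% of all genes were called in either direction. It stood at 0.64 (adjusted p = 0.02), at 0.54 without KD array 3 (adjusted p = 0.099) and at 0.55 without WT array 3 (adjusted p = 0.1).

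At day 4 the 3 VEGF receptor genes were lower in the KD-labelled line than in both controls, while Tek and Pecam1 were higher. Kdr and Nrp1 had risen steeply in both control lines and had not in the KD-labelled line. Flt1 had risen in the controls by a smaller step. Tie1, Cdh5, Emcn and Sox18 were at their ESC level in all lines, with no call among them between lines or against ESCs. Against SCR, 2 members were called higher and 3 lower (22.6% and 19.9% of all genes), and against WT likewise 2 and 3 (19.2% and 19.9% of all genes). Both comparisons use the same KD-labelled arrays, so they are not separate evidence.

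Kdr, the receptor gene that marks vascular and blood precursors in early mesoderm, stood at 5.44, 5.81 and 5.24 in KD-labelled EBs of day 4, against 10.40, 10.27 and 10.20 in SCR and 10.01, 10.52 and 10.50 in WT EBs. No KD-labelled array reached the range of the controls, and the 2 control lines overlapped. The KD-labelled mean was 27.7-fold below SCR (-4.79, SE 0.2, adjusted p = 7.1e-21) and 28.8-fold below WT (-4.85, SE 0.2, adjusted p = 7.4e-21). Over the whole course Kdr kept a narrow range in the KD-labelled line, with group means between 5.47 and 6.04. In the controls it peaked at day 4, at means of 10.29 in SCR and 10.34 in WT, and then declined. By day 16 it was at 5.78, 5.85 and 5.48 in KD-labelled EBs, against 8.38, 8.62 and 8.30 in SCR and 8.17, 7.57 and 7.24 in WT EBs. The lines still did not overlap there, and the difference was -2.73 against SCR and -1.96 against WT (SE 0.2 each, adjusted p = 1.8e-14 and 1.2e-10).

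Nrp1, the neuropilin co-receptor gene, gave the widest separation of the 9. At day 4 it stood at 4.89, 5.37 and 4.62 in KD-labelled EBs, against 11.47, 11.55 and 11.73 in SCR and 11.57, 11.34 and 10.94 in WT EBs. These levels put the KD-labelled mean 98.6-fold below SCR (-6.62, SE 0.18, adjusted p = 4.8e-26) and 80.1-fold below WT (-6.32, SE 0.18, adjusted p = 1.8e-25). Unlike Kdr, Nrp1 rose late in the KD-labelled line. It reached 6.82, 6.85 and 6.84 at day 8, against 12.67, 12.25 and 12.37 in SCR and 12.68, 12.46 and 12.57 in WT EBs. All 3 KD-labelled arrays of day 8 lay above all 3 of day 4, a step of 1.88 (SE 0.18, adjusted p = 1.3e-09). The KD-labelled mean was 7.35 at day 16, against 11.21 in SCR and 10.75 in WT EBs, and the differences were then -3.87 and -3.40 (SE 0.18 each).

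Nrp1 is read by 4 probe sets, and all 4 put the KD-labelled EBs below the SCR EBs on each day. At day 8 the other 3 gave -6.25, -6.19 and -4.51. Their KD-labelled means were 5.20, 5.31 and 5.16 at day 8 and 4.04, 3.87 and 5.31 at day 4, so the later level was higher in all but the fourth.

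Flt1, the gene of the decoy VEGF receptor, crossed over. At day 4 it stood at 5.63, 5.85 and 6.22 in KD-labelled EBs, against 8.03, 7.61 and 7.50 in SCR and 7.79, 7.80 and 7.47 in WT EBs, so that all KD-labelled arrays were below all control arrays (-1.81 against SCR and -1.79 against WT, SE 0.19 each, adjusted p = 5.5e-10 and 9.8e-10). At day 8 the lines overlapped, with 7.55, 7.61 and 7.56 in KD-labelled, 7.78, 7.68 and 7.55 in SCR and 7.34, 7.80 and 7.55 in WT EBs (-0.10 against SCR and 0.01 against WT, adjusted p = 0.71 and 0.97). At day 12 it stood at 8.59, 8.05 and 8.62 in KD-labelled EBs, against 7.81, 7.46 and 7.60 in SCR and 7.35, 7.03 and 7.26 in WT EBs. Now every KD-labelled array was above every control array, by 0.80 against SCR (SE 0.19, adjusted p = 0.00058) and 1.21 against WT (SE 0.19, adjusted p = 1.6e-06). Day 16 kept this order, with 8.39, 7.83 and 8.45 in KD-labelled EBs, against 7.50, 7.61 and 7.68 in SCR and 7.14, 6.78 and 7.27 in WT EBs (0.63 and 1.16, adjusted p = 0.0049 and 3.1e-06). Within the KD-labelled line the rise over ESCs was 2.18 at day 8, 3.02 at day 12 and 2.83 at day 16 (SE 0.19 each). At day 4 it was 0.50 and not called. The second probe set gave 1.24 there (adjusted p = 9.1e-05) and the mean of all Flt1 probe sets 0.57 (adjusted p = 0.011), both called. Of the 3 receptor genes for VEGF, Flt1 was the only one above the controls at any EB day.

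The crossing showed in all 4 Flt1 probe sets. Relative to SCR, all were called lower at day 4 in the KD-labelled line, none was called at day 8, and all were called higher at days 12 and 16. The 3 further probe sets gave 1.71, 1.10 and 0.98 at day 12. Flt1 makes a long membrane form and shorter soluble forms by alternative polyadenylation, and these values were not assigned to either form.

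**Figure D2:**
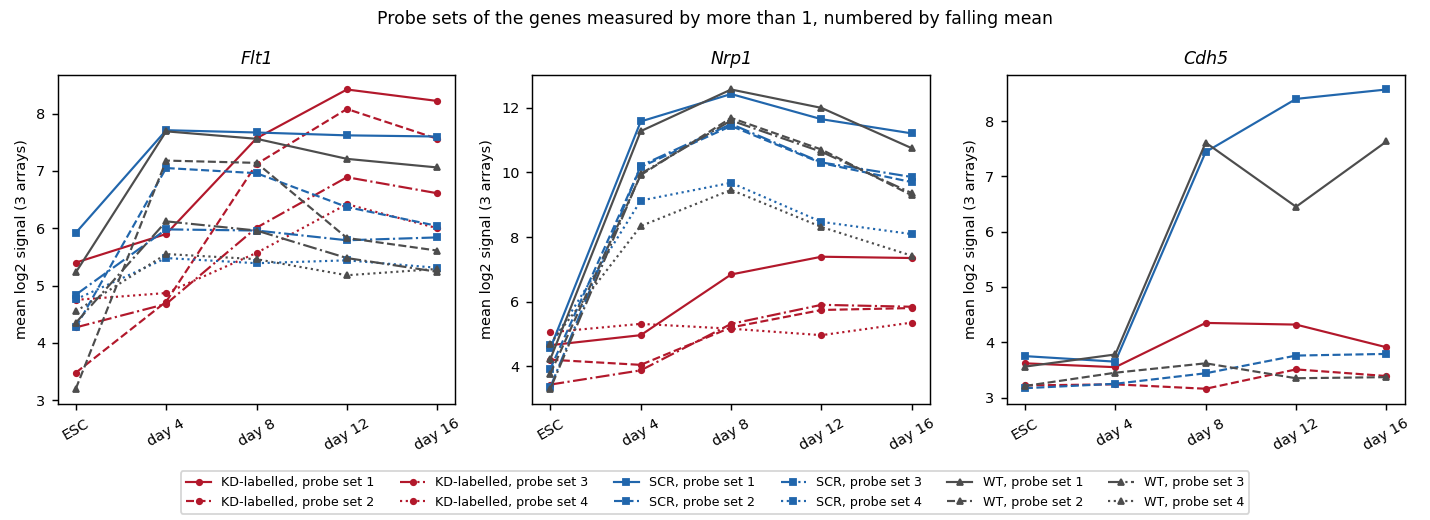
Mean log2 signal of 3 arrays (y axis) by stage (x axis) for each probe set of Flt1, Nrp1 and Cdh5 in KD-labelled (red), SCR (blue) and WT (grey) cells, with the line style giving the probe set's rank by mean level. The 4 Flt1 probe sets put the KD-labelled line below SCR at day 4 and above it at day 12, and the 4 Nrp1 probe sets put it below throughout the EB days, while the second Cdh5 probe set stays dim in all lines.

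The angiopoietin receptor genes followed other courses. Tek, which encodes TIE2, gave overlapping levels in ESCs of SCR and WT and a close one in the KD-labelled line, at 6.78, 6.83 and 6.76 in KD-labelled, 6.75, 6.54 and 6.48 in SCR and 6.50, 6.78 and 6.36 in WT ESCs. At day 4 it stood at 6.10, 6.20 and 5.90 in KD-labelled EBs, against 3.66, 3.81 and 3.71 in SCR and 3.54, 3.73 and 4.26 in WT EBs. Every KD-labelled array was thus above every control array, by 2.34 against SCR and 2.22 against WT (SE 0.17 each, adjusted p = 4.3e-14 and 2e-13).

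By day 8 the order of Tek was turned round, with 5.19, 5.02 and 5.15 in KD-labelled EBs, against 8.23, 7.73 and 8.17 in SCR and 8.55, 8.74 and 8.89 in WT EBs (-2.92 and -3.61, SE 0.17 each, adjusted p = 5.1e-17 and 1.8e-19). The controls had dropped by 2.86 in SCR and 2.70 in WT between ESCs and day 4, and then gained 4.32 and 4.88 to day 8 (SE 0.17 each). In the KD-labelled line the level fell without such a dip, by 0.72 to day 4 (adjusted p = 0.0015) and by 1.67 to day 8 relative to ESCs (adjusted p = 8.2e-10). As the controls declined after day 8, the gap narrowed to -1.38 against SCR at day 12 and -0.81 at day 16 (adjusted p = 9.8e-09 and 9.4e-05), and to -1.64 and -0.96 against WT (adjusted p = 2.2e-10 and 8.7e-06).

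Tie1, the gene of the TIE2 partner receptor, was dim throughout and rose in the controls at day 8, by 1.53 over ESCs in SCR and 1.13 in WT. It stood there at 3.30, 3.23 and 3.23 in KD-labelled EBs, against 4.29, 5.99 and 4.49 in SCR and 4.34, 4.52 and 4.97 in WT EBs. No KD-labelled array reached the controls (-1.67 against SCR and -1.36 against WT, SE 0.24 each, adjusted p = 3.1e-07 and 1.2e-05). The second SCR array stood well above the other two, and without it the difference from SCR was -1.14 and still called, and the rise over ESCs in SCR was 0.99. The KD-labelled group means stayed between 3.25 and 3.39 at all 5 stages. At days 12 and 16 Tie1 was still lower than in SCR EBs (-1.07 and -1.24, adjusted p = 0.00029 and 3.8e-05). The differences from WT were then -0.36 and -0.17 and were not called (adjusted p = 0.24 and 0.55), since WT itself had come down by 0.96 after day 8 (adjusted p = 0.0054, and 0.06 for a step of -0.78 without WT array 3 of day 8).

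The junction gene Cdh5 was dim in all lines up to day 4 and then appeared in the controls. At day 8 it stood at 4.08, 4.32 and 4.64 in KD-labelled EBs, against 7.04, 7.26 and 8.03 in SCR and 7.05, 7.93 and 7.85 in WT EBs. At day 12 the arrays gave 4.21, 4.16 and 4.60 in KD-labelled EBs, against 8.59, 8.38 and 8.22 in SCR and 6.36, 6.98 and 6.01 in WT EBs. The values at day 16 were 4.17, 3.89 and 3.67 in KD-labelled EBs, against 8.46, 8.54 and 8.72 in SCR and 8.27, 7.82 and 6.81 in WT EBs. The KD-labelled arrays lay below all control arrays on each of these days. Against SCR the gap was -3.10, -4.07 and -4.66 over the 3 days (SE 0.26 each, adjusted p = 1.1e-12, 6.6e-16 and 1.3e-17), and against WT -3.26, -2.13 and -3.72 (SE 0.26 each, adjusted p = 3.1e-13, 8.9e-09 and 8.5e-15). At day 16 this made 25.3-fold less measured signal than in SCR and 13.2-fold less than in WT EBs. The KD-labelled level was then not called above its ESC level, so that these folds are lower bounds where the probe set only reads background.

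A small rise of Cdh5 in the KD-labelled line, 0.73 at day 8 and 0.71 at day 12 over ESCs, passed the test (adjusted p = 0.026 and 0.027) but depended on single arrays. Without KD-labelled ESC array 3 it was 0.65 and 0.62 (adjusted p = 0.092 and 0.094), without the third array of the EB day 0.58 and 0.57 (adjusted p = 0.13 on each day), and without array 2 of day 8 it was 0.74 (adjusted p = 0.05). The second Cdh5 probe set was dim in all groups and moved little: KD minus SCR was -0.28 at day 8 and -0.25 at day 12 (adjusted p = 0.083 and 0.12 over probe sets), and -0.40 at day 16 (adjusted p = 0.011). Against WT its direction turned, to 0.16 at day 12 and 0.02 at day 16, where the first probe set gave -2.13 and -3.72.

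Emcn, which encodes the endothelial surface sialomucin endomucin, was dim in all lines at first and appeared in the controls at day 8. Up to day 4 its arrays lay between 2.74 and 3.33 in all lines. At day 8 it stood at 3.04, 3.26 and 2.88 in KD-labelled EBs, against 7.22, 7.02 and 7.83 in SCR and 8.01, 7.63 and 7.52 in WT EBs. At day 16 the values were 2.96, 3.36 and 3.64 in KD-labelled EBs, against 7.81, 7.48 and 7.95 in SCR and 7.18, 6.54 and 6.78 in WT EBs. The KD-labelled line did not leave its ESC level by any call, and the gap against SCR was 19.7-fold at day 8, 20.4-fold at day 12 and 21.5-fold at day 16 (-4.30, -4.35 and -4.43, SE 0.2 each, adjusted p = 7.3e-20, 5.7e-20 and 2.9e-20). No detection call was used here, so these folds are ratios of measured signal, and lower bounds where the probe set only reads background. Against WT the differences were -4.66, -3.18 and -3.51 (SE 0.2 each).

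The DNA just upstream of a gene of the late group is shown for Tie1 and Emcn, which rose in both controls at day 8 and were not called against ESCs at any stage of the KD-labelled line, and whose window lies outside the annotated gene, wholly for Tie1 and for all but its last bases, which are not shown, for Emcn. The sequences are RefSeq's, on GRCm38.p6, written 5′ to 3′ on the gene's own strand and ending at the base before the gene: chr4:118489850-118490099 on the minus strand for Tie1 and chr3:137340828-137341061 on the plus strand for Emcn. Capitals mark GGAA, the core bound by ETS factors, and AACAAT, a core bound by SOX factors, read on both strands, so that GGAA also appears as TTCC.
Tie1: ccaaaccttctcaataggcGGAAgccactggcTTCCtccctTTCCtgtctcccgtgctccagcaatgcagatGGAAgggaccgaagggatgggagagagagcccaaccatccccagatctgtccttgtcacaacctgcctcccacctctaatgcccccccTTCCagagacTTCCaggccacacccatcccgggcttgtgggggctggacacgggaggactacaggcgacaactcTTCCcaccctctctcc
Emcn: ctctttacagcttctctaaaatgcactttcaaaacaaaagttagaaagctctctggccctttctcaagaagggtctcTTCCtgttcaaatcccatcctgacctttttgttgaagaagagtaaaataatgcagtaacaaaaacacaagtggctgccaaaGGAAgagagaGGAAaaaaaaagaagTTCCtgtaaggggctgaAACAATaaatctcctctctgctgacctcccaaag
Tie1 held 7 GGAA matches and no AACAAT, and Emcn held 4 GGAA matches and 1 AACAAT. The GATA core AGATAA was not found in either window, and none of the matches shared a base. The Tie1 sequence has 250 bases, and that of Emcn the 234 of its 250-base window that precede the gene. Of the 32851 promoter windows of 250 bases in the table, 93.4% held GGAA at least once, with a median of 3 matches, 9.42% held AACAAT and 9.99% AGATAA. A match is a run of letters and does not show binding. Kdr, Flt1, Tek and Nrp1 also had an entry, with 4, 4, 2 and 4 GGAA matches in 250 bases, and Tek with 1 AACAAT. Their windows lay within the annotated gene, wholly for Kdr, Flt1 and Nrp1 and for all but 47 bases for Tek. These counts are thus not of upstream DNA alone.

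Sox18, the only transcription factor gene of the 9, came up with Emcn and Cdh5. At day 8 it stood at 3.70, 3.71 and 3.27 in KD-labelled EBs, against 6.07, 6.85 and 7.21 in SCR and 6.22, 6.79 and 7.10 in WT EBs. Instead of rising, it was 0.90 below its ESC level in the KD-labelled line (a difference of -0.90, SE 0.25, adjusted p = 0.0039). The gap was -3.15 against SCR and -3.14 against WT (SE 0.25 each, adjusted p = 1.8e-13 and 2.1e-13). At day 16 Sox18 stood at 4.18, 3.92 and 3.80 in KD-labelled EBs, against 6.65, 7.04 and 7.39 in SCR and 6.08, 5.10 and 5.18 in WT EBs, with no overlap (-3.06 and -1.49, SE 0.25 each).

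Pecam1 followed another course than Cdh5, the other junction gene of the 9. In WT it was 2.12 lower at day 4 than in ESCs (a difference of -2.12), and in SCR the step was -0.90 (adjusted p = 0.016), or -0.51 without SCR ESC array 3 and -0.68 without SCR array 3 of day 4, both not called. At day 4 Pecam1 stood at 6.37, 6.84 and 6.44 in KD-labelled EBs, against 4.33, 4.53 and 3.77 in SCR and 4.34, 4.32 and 3.65 in WT EBs. At day 8 the values were 6.66, 7.01 and 6.71 in KD-labelled EBs, against 5.06, 5.79 and 5.43 in SCR and 5.13, 5.80 and 5.77 in WT EBs. On both days every KD-labelled array was above every control array. The differences were 2.34 and 1.37 against SCR and 2.45 and 1.23 against WT (SE 0.31 each, adjusted p = 5.4e-08, 0.00026, 2.7e-08 and 0.00093).

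By day 16 the SCR line had caught up in Pecam1, with 6.50, 6.94 and 6.26 in KD-labelled EBs, against 6.28, 6.94 and 6.47 in SCR and 5.83, 5.39 and 5.22 in WT EBs. The difference from SCR was 0.04 at day 12 and 0.00 at day 16 (SE 0.31 each, adjusted p = 0.92 and 0.99), and that from WT 1.73 and 1.09 (SE 0.31 each, adjusted p = 9.6e-06 and 0.0027). No stage of the KD-labelled line was called as different from its ESCs. A nearly level course therefore lay above the controls at days 4 and 8 and equal in mean to one of them at day 16. The pluripotency list was also higher in the KD-labelled line: at day 8 its mean was 10.94 to 11.04 in KD-labelled arrays, against 5.09 to 5.55 in SCR and 5.05 to 5.66 in WT arrays, and all 10 of its genes were called higher than in SCR. All 10 were still higher at days 12 and 16 (medians of 5.67 and 5.90), where Pecam1 did not pass the test against SCR. Its part in the Pecam1 result was not tested.

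Counted together, 1 member was called higher and 7 lower than in SCR at each of days 8, 12 and 16. The higher one was Pecam1 at day 8 and Flt1 at days 12 and 16, and the member not called was Flt1 at day 8 and Pecam1 afterwards. Over all genes 28% were called higher and 24.7% lower at day 8, 31% and 24.6% at day 12, and 39.8% and 26.8% at day 16. The median of the 9 differences was -3.10, -3.00 and -2.73 on the 3 days, beside 0.07, 0.10 and 0.17 over all genes. Against WT, 1 was higher and 7 lower at day 8, and 2 were higher and 6 lower at days 12 and 16. The shares over all genes were 26% and 23.9% at day 8, 27.1% and 23.6% at day 12, and 34.6% and 26.1% at day 16. Whether the KD minus SCR difference changed with stage was tested by a moderated F test over the EB days relative to ESCs: all 9 members were called, where 58.5% of all genes were.

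**Figure D3:**
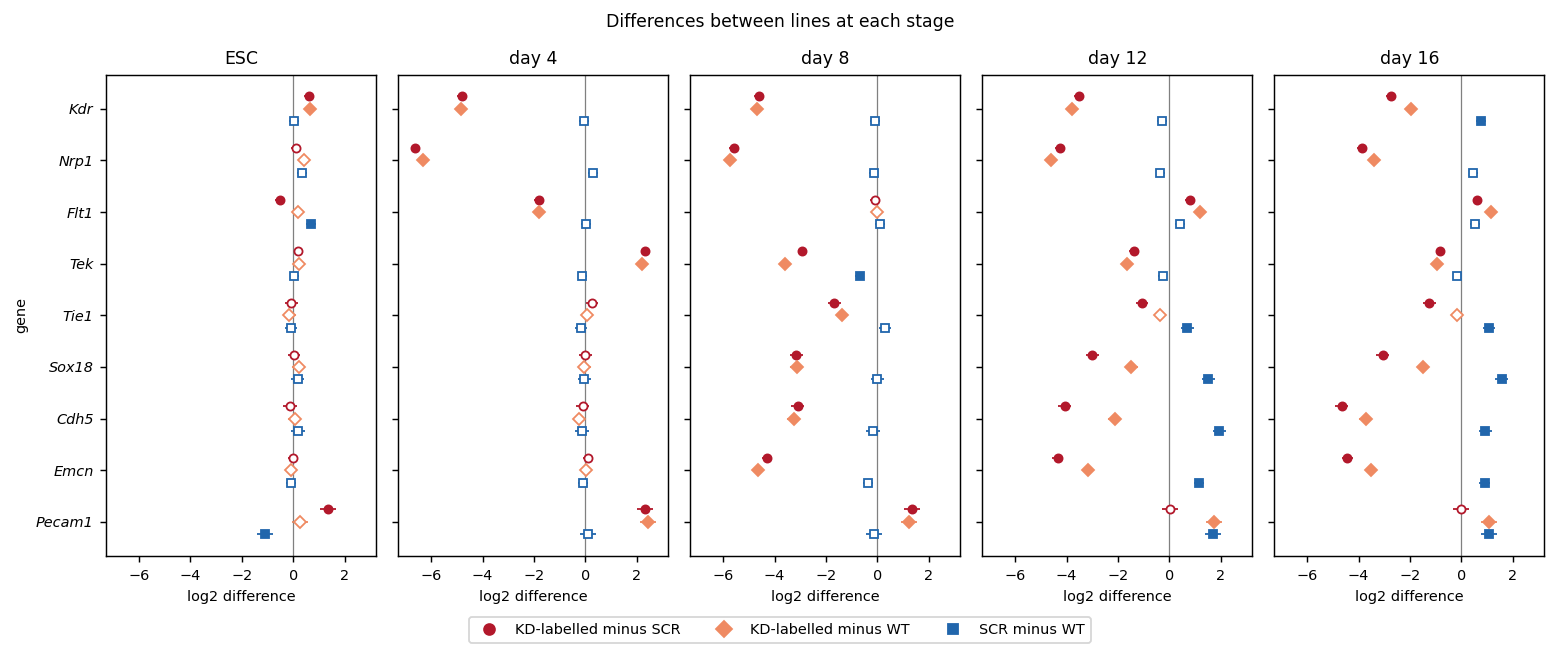
Log2 difference between lines (x axis, with SE bars) for each gene (rows) at each stage (panels): KD-labelled minus SCR (red circles), KD-labelled minus WT (orange diamonds) and SCR minus WT (blue squares), filled where called. Kdr, Nrp1, Emcn, Cdh5 and Sox18 lie far left of 0 for both comparisons of the KD-labelled line at day 8, and most SCR minus WT points of days 12 and 16 lie right of 0.

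The 2 control lines parted late. At day 4 no member was called between SCR and WT by limma, and 0 had an unadjusted p under 0.05, where 1.93% of all genes were called. At day 12, 5 members were higher in SCR than in WT and none lower, where 7.05% of all genes were called higher and 7.67% lower. They were Cdh5 (1.95, SE 0.26, adjusted p = 1.4e-06), Pecam1 (1.69, SE 0.31, adjusted p = 0.00015), Sox18 (1.52, SE 0.25, adjusted p = 2.9e-05), Emcn (1.17, SE 0.2, adjusted p = 5.7e-05) and Tie1 (0.71, SE 0.24, adjusted p = 0.044). The Tie1 call was lost without any 1 of the 6 arrays, at differences of 0.55 to 0.80 and adjusted p of 0.055 to 0.21. In SCR EBs Sox18 stood at 7.07, 6.65 and 6.89, against 4.93, 5.85 and 5.26 in WT EBs, without overlap.

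At day 16, 6 members were higher in SCR than in WT and none lower, where 3.86% and 4.25% of all genes were called. They were Sox18 (1.57, adjusted p = 1.8e-05), Pecam1 (1.08, adjusted p = 0.02), Tie1 (1.07, adjusted p = 0.0028), Cdh5 (0.94, adjusted p = 0.016), Emcn (0.91, adjusted p = 0.0016) and Kdr (0.77, adjusted p = 0.0084). Without WT array 3 the count was 3: Kdr was then 0.56 (adjusted p = 0.13), Cdh5 0.53 (adjusted p = 0.31) and Pecam1 0.95 (adjusted p = 0.11). Further single arrays ended the call of Kdr (0.68 without SCR array 2, adjusted p = 0.06), of Cdh5 (0.87 without SCR array 3, adjusted p = 0.086) and of Pecam1 (1.04 without WT array 2 and 0.89 without SCR array 2, adjusted p = 0.064 and 0.13). Sox18, Tie1 and Emcn kept theirs without any single array. For 6 members SCR minus WT changed with stage by the F test, where 15% of all genes did. They are the same 6, with adjusted p between 9.5e-05 for Pecam1 and 0.049 for Kdr.

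At the earlier stages single calls stood between the controls. In ESCs Flt1 was 0.70 above and Pecam1 1.11 below WT in SCR (a difference of -1.11, adjusted p = 0.015 for each gene), where 10.2% of all genes were called. Flt1 lost its call without WT array 3 (0.58, adjusted p = 0.13) or SCR array 1 (0.61, adjusted p = 0.11), and Pecam1 without WT array 3 (-0.83, adjusted p = 0.17), SCR array 1 (-0.78, adjusted p = 0.21) or SCR array 2 (-1.06, adjusted p = 0.055). At day 8 Tek was lower in SCR than in WT (-0.68, adjusted p = 0.009), where 6.99% of all genes were called, and this was -0.60 without WT array 3 (adjusted p = 0.063) and -0.53 without SCR array 2 (adjusted p = 0.12).

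Other genes also differed between the controls at these days. Strip2 was 1.55 and 1.97 higher in SCR than in WT at days 12 and 16 (adjusted p = 4.1e-07 and 1.3e-09). Cardiac muscle markers differed earlier: all 8 were called higher in SCR at day 8 (median 3.75), where no member was higher, all 8 at day 12 (median 2.73) and 7 of 8 at day 16 (median 2.88). Their list mean was 9.09 to 10.68 in SCR and 6.10 to 7.44 in WT arrays at day 8, and 9.98 to 10.47 in SCR and 6.94 to 8.81 in WT arrays at day 12. Of 15 blood markers 7 were lower in SCR at day 12 and none higher, and the list mean was 7.11 to 7.57 in SCR and 7.49 to 8.24 in WT arrays. Their part in the endothelial result was not tested.

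Measured from ESCs, the controls gained most of the set. In SCR, 8 members were called higher and none lower at days 8 and 12, and 8 higher and 1 lower, Tek, at day 16. Over all genes 26%, 27.5% and 29.1% were called higher on these days, and 32.2%, 39.1% and 42.7% lower. In WT the counts were 8 higher and 0 lower at day 8, 7 and 1 at day 12, and 6 and 2 at day 16, where 25.8%, 26.8% and 28.1% of all genes were called higher and 30.8%, 33.2% and 38.1% lower. In the KD-labelled line 3 were higher and 2 lower at days 8 and 12, and 2 higher and 1 lower at day 16, where 17.8%, 20.2% and 19.1% of all genes were called higher and 19.1%, 23.2% and 19.1% lower. The 2 higher at day 16 were Flt1 and Nrp1 and the lower one was Tek. Of the 2 lower at day 12, Kdr (-0.57) lost its call without KD-labelled ESC array 3 (-0.47, adjusted p = 0.093). Without array 3 of day 12 it was -0.52 (adjusted p = 0.066). The 3 higher at days 8 and 12 include Cdh5, whose call depended on single arrays, as given above. The 2 lower in WT at day 16 were Tek (-0.43) and Pecam1 (-0.74), and both calls hung on single arrays. The 7 higher in WT at day 12 include Tek (0.43), which lost its call without WT ESC array 1 or 3 (0.41 and 0.34) or WT array 1 or 3 of day 12 (0.40 and 0.29), at adjusted p of 0.074 to 0.19. Tek was -0.31 without WT ESC array 2 and -0.30 and -0.34 without WT array 2 or 3 of day 16, and Pecam1 was -0.46 without WT ESC array 3 and -0.70 and -0.61 without WT array 2 or 3 of day 16.

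After day 8 the controls differed in course. Between days 8 and 12 in WT, 7 of 9 members were called lower and none higher, where 6.03% and 6.47% of all genes were. The steps were -1.75 for Tek, -1.36 for Sox18, -1.19 for Emcn, -1.16 for Cdh5, -0.97 for Kdr, -0.96 for Tie1 and -0.57 for Nrp1. Flt1, at -0.35, was not called, but was called lower by its second probe set (-1.31, adjusted p = 6.5e-05) and by the mean of its probe sets (-0.61, adjusted p = 0.01). Cdh5 lost its call with its dim second probe set (-0.28, adjusted p = 0.2). The step of Nrp1 lost its call without WT array 1 or 3 of day 8 or array 2 of day 12 (-0.52, -0.57 and -0.49, adjusted p = 0.1, 0.07 and 0.13), and that of Tie1 without array 3 of day 8. In SCR, 2 members were higher and 3 lower, where 6.3% and 4.56% of all genes were called. Tek, Kdr and Nrp1 fell (by 1.33, 1.17 and 0.78), while Cdh5 gained 0.95 (adjusted p = 0.012) and Pecam1 0.99 (adjusted p = 0.029). The Cdh5 call was lost without SCR array 1 or 2 of day 8 or array 1 of day 12 (0.75 to 0.86). The Pecam1 call was lost without SCR array 1 or 3 of day 8 or array 2 or 3 of day 12 (0.81 to 1). Emcn and Sox18 were level in SCR over these days (0.35 and 0.16, adjusted p = 0.32 and 0.78).

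The 9 genes fell into courses that resemble each other to different degrees. Over the 15 group means, which share lines and stages and are not independent, Pearson's r was 0.99 between Cdh5 and Emcn, 0.96 between Emcn and Sox18, 0.94 between Tie1 and Sox18 and 0.92 between Kdr and Nrp1. It was -0.66 between Kdr and Pecam1 and -0.27 between Flt1 and Tek. These values are a description of the means only.

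Among all genes with a single symbol, the closest courses over the same 15 group means were found by Pearson's r. For Cdh5 they were Icam2, an adhesion molecule gene of endothelium and platelets (0.987), the chemokine gene Cxcl12 (0.98) and Tsc22d1 (0.977). For Emcn they were Gucy1a1, a subunit of the nitric oxide receptor guanylate cyclase (0.99), Megf10 (0.989) and the caveolar protein gene Cavin2 (0.988), and for Sox18 Gimap6 (0.98), the endothelial lectin gene Clec14a (0.974) and the G protein subunit gene Gng11 (0.969). Tie1 was nearest to Lrrc39 (0.98), Popdc2 (0.975), both known from heart and skeletal muscle, and Adgrl4, an endothelial adhesion receptor gene (0.973). Nrp1 was nearest to the protocadherin gene Pcdh7 (0.995), Ranbp6 (0.993) and Capn6 (0.988), and Kdr to Klhl6 (0.978), Ccnjl (0.978) and Frmd6 (0.976). Flt1 was nearest to Pth1r, the parathyroid hormone receptor gene of parietal endoderm, bone and kidney (0.97), B3glct (0.949) and the endoderm transcription factor gene Foxa2 (0.947). Tek was nearest to Myrf (0.966), Steap2 (0.956) and Uvrag (0.929). Pecam1 had no course as close, with Ptp4a3 (0.903), Trim63 (0.89) and Oxr1 (0.878).

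The genes around the 9 in the same pathways were followed by lists, whose counts stand beside the shares called over all genes. Against SCR these were 22.6% higher and 19.9% lower at day 4, and 28% and 24.7% at day 8. They were 31% and 24.6% at day 12, and 39.8% and 26.8% at day 16. Against WT they were 19.2% and 19.9%, 26% and 23.9%, 27.1% and 23.6%, and 34.6% and 26.1% on the same days. Of 12 ligand genes of the VEGF, angiopoietin and semaphorin families, 2 were higher and 7 lower in the KD-labelled line than in SCR at day 8, 1 and 8 at day 12, and 1 and 9 at day 16. Their median difference was -1.02, -1.47 and -1.42 on these days. Against WT the counts were 1 and 7, 0 and 6, and 1 and 7, with medians of -1.10, -0.52 and -0.83. Angpt1, the activating ligand of TIE2, averaged 3.28 in KD-labelled and 9.49 in SCR EBs at day 8 (-6.21, SE 0.18, adjusted p = 2.7e-25). The semaphorin genes Sema3a and Sema3c, whose products bind neuropilins, were lower as well, with differences of -3.89 for Sema3a at day 8 and -5.84 for Sema3c at day 16. At day 4, however, Sema3c was higher than in SCR (1.32, SE 0.32, adjusted p = 0.00068). Vegfc, the ligand gene for lymphatic growth, was -2.72 at day 8, and Vegfa, the main ligand gene of Kdr, -1.17 at day 4 (SE 0.28, adjusted p = 0.00081). Sema3e went the other way at day 8 (1.66, SE 0.27, adjusted p = 1.6e-06). Day 4 was mixed, with 3 of the 12 ligand genes higher and 3 lower than in SCR, and 3 and 4 against WT. Besides Sema3c, the higher ones against SCR were Vegfd (0.90) and Sema3e (0.80).

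Of 15 other vascular receptor genes, 2 were higher and 6 lower than in SCR at day 4, 0 and 10 at day 8, 0 and 13 at day 12, and 1 and 14 at day 16. The medians of the last 3 days were -0.86, -0.90 and -0.93. Against WT 1 was higher and 10 lower at day 8, 2 and 6 at day 12, and 1 and 6 at day 16, with medians of -0.86, -0.17 and -0.26. The apelin receptor gene Aplnr, active in early mesoderm and endothelium, averaged 2.61 in KD-labelled and 11.29 in SCR EBs at day 4 (-8.67, SE 0.2). The chemokine receptor gene Cxcr4 was -5.31 at day 4, and Plxnd1, a semaphorin receptor gene of endothelium, was -3.56 at day 8 and -3.39 at day 16. Eng, the endoglin gene, was among the few above SCR, by 0.52 at day 4 and 0.46 at day 16 (adjusted p = 0.0035 and 0.007).

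Of 20 other endothelial junction and surface genes, 7 were higher and 3 lower than in SCR at day 4, 3 and 13 at day 8, 3 and 15 at day 12, and 3 and 13 at day 16. The medians were 0.15, -0.96, -1.01 and -1.41, beside 0.03, 0.07, 0.10 and 0.17 over all genes, of which 22.6% were called higher and 19.9% lower at day 4. Against WT 2 were higher and 13 lower at day 8, 5 and 8 at day 12, and 5 and 11 at day 16, with medians of -0.88, -0.14 and -0.58. Cd93, which encodes an endothelial and myeloid surface receptor, was -4.97, -5.49 and -5.70 on the last 3 days, and Cd34 was -3.07, -3.67 and -3.87. Icam2 was -2.77, -3.61 and -4.01. The exceptions included Jam2, a junctional adhesion molecule gene that mouse ESCs also express, which was 4.29 higher at day 4 and 5.48 at day 8 (SE 0.27 each). It averaged 11.01 in KD-labelled and 5.53 in SCR EBs at day 8. Plvap, of the fenestral diaphragm, was 2.55 higher at day 4 (SE 0.24, adjusted p = 2.4e-11).

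Among 19 endothelial transcription factor genes, 1 was higher and 13 lower than in SCR at day 4, and 5 and 12 at day 8. At day 12 they were 4 and 13, and at day 16, 3 and 13. Medians were -1.9, -1.41, -1.61 and -1.21. Against SCR, on no day was the share of the list called higher above that of all genes (22.6%, 28%, 31% and 39.8%). Over all genes 19.9%, 24.7%, 24.6% and 26.8% were called lower. Against WT the counts were 1 and 14, 6 and 11, 5 and 10, and 4 and 12. Over all genes 19.2%, 26%, 27.1% and 34.6% were called higher than in WT, and 19.9%, 23.9%, 23.6% and 26.1% lower. At day 8 the share of the list called higher than in WT was above that of all genes. At day 4 Tal1, needed for blood and endothelial precursors, averaged 4.67 in KD-labelled and 7.68 in SCR EBs (-3.01, SE 0.22, adjusted p = 2.7e-14). Sox17 changed sign with stage: it was 1.70 higher than in SCR already in ESCs (SE 0.29, adjusted p = 2e-05). It was -3.56 at day 4 and then 1.04, 1.59 and 1.18 at days 8, 12 and 16 (SE 0.29 each, adjusted p = 0.0026, 1.3e-05 and 0.00061). Sox7 was 1.99 higher at day 8 (SE 0.34), while Sox18, of the same SOXF family, was lower on that day. Sox17 and Sox7 are also active in extraembryonic endoderm. Klf2, a flow-responsive gene of endothelium that is likewise part of the ESC network, was 5.58 higher at day 4. Nr2f2 (-5.41) and Mef2c (-4.95) were the lowest at day 8, and Etv2, an early regulator of endothelial fate, was 1.34 higher at day 12 (SE 0.26, adjusted p = 3.7e-05), at a mean of 5.72 in KD-labelled and 4.38 in SCR EBs.

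**Figure D4:**
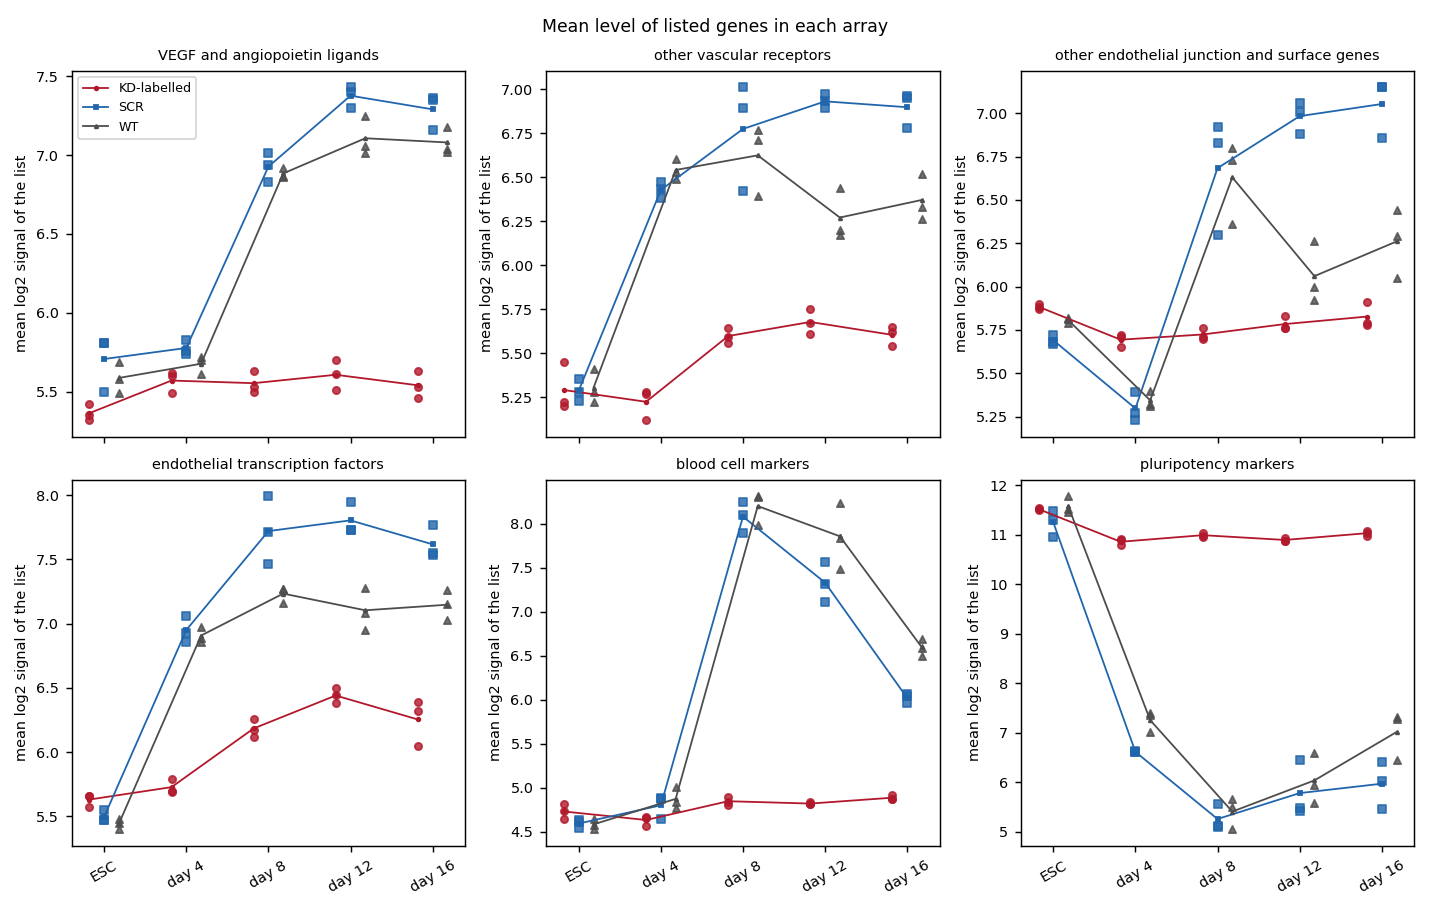
Mean log2 signal of the genes of each list in every array (y axis) by stage (x axis), for KD-labelled (red circles), SCR (blue squares) and WT (grey triangles) arrays, with lines through the means of 3 arrays. At day 8 the 3 KD-labelled arrays lie below all 6 control arrays for ligands, other receptors, other junction and surface genes, transcription factors and blood markers, and above them for pluripotency markers.

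Markers of cell types that share or neighbour the endothelial lineage also differed in the KD-labelled line. At day 8, 12 of 15 blood markers were lower than in SCR and none higher, where 24.7% and 28% of all genes were. The list mean was 4.80 to 4.90 in KD-labelled arrays, against 7.89 to 8.25 in SCR and 7.99 to 8.31 in WT arrays, with 10 of the 15 genes below the array median in KD-labelled EBs and 0 in either control. At day 16, 4 blood markers were higher and 6 lower than in SCR (median 0.12), where 39.8% and 26.8% of all genes were. Against WT, 4 were higher and 8 lower (median -1.43), where 34.6% and 26.1% of all genes were. The embryonic globin gene Hbb-bh1 averaged 3.58 in KD-labelled and 13.59 in SCR EBs at day 8. Of 8 pericyte and smooth muscle markers 5 were lower and none higher at day 8, among them Pdgfrb (-5.06), and the list mean was 5.80 to 5.86 in KD-labelled, 7.79 to 8.02 in SCR and 7.65 to 7.92 in WT arrays. All 8 mesenchyme markers were lower at day 8 against SCR and against WT, with medians of -6.77 and -7.45. All 8 cardiac markers were lower against SCR (median -6.13), while against WT 5 were lower and 1 higher (median -1.11).

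Of 6 lymphatic genes 5 were lower than in SCR at day 8, among them Lyve1 (-3.05), and 6 were lower than in WT. At day 16 the podoplanin gene Pdpn was higher than in SCR (0.70, adjusted p = 0.00014), while the other 5 were lower. Against WT none was called higher at day 16 and 5 were lower. Of 8 visceral endoderm and hepatic markers, 2 were higher than in SCR at day 8, Cubn (5.80) and Amn (3.35). Another 4 were lower, and the list median was -0.71. Against WT 2 were higher and 5 lower, with a median of -1.4. In both comparisons the share called higher was below that of all genes (28% for SCR and 26% for WT). Of 5 trophoblast markers measured, 2 were higher and 2 lower than in SCR at day 8, and of 8 neural markers 2 were higher and 1 lower. Over all genes 28% and 24.7% were, so these counts say nothing particular about the trophoblast or the neural list. The part of these cell types in the levels of the 9 genes was not tested.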

How the data were processed

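RNA of 45 samples was measured on Affymetrix Mouse430 2.0 arrays. The deposited values are log2 signals of 45037 probe sets, normalized by the authors; RMA, Affymetrix Expression Console and Partek are named in the submitters' processing notes, which give no role or order. The values ran from 1.82 to 14.26 and were not rescaled. Probe sets were named from the platform annotation: 34945 had 1 symbol, 932 several and 9160 none, and each of the 18193 genes was read from its probe set with the highest mean over the 45 arrays. Arrays give no counting depth, and the number of arrays limits the precision.

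All 45 arrays entered a single limma 3.58.1 fit in R 4.3.3 with 15 group means, 30 residual degrees of freedom and empirical Bayes moderation, and p-values were adjusted by Benjamini and Hochberg's method over all genes, at 0.05. A change of a line difference with stage was tested by a moderated F test over 4 EB days relative to ESCs. The script was tested on simulated data. Groups came from the labels. Arrays of different lines share replicate numbers. Their deviations from the group means correlated above 0.1 in 7 of 15 same-numbered pairs for KD and SCR, and 4 of 15 for KD and WT. For SCR and WT it was 10 of 15. The median correlations were 0.07, -0.03 and 0.23. Differently numbered arrays were not compared, so these values do not settle whether the numbers pair the arrays. The main fit did not pair them, and a replicate block was run as an alternative.

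The members and lists were chosen with earlier results of these data known. All 9 members are named. From each list, genes were named among the up to 3 called higher and 3 called lower with the largest KD minus SCR difference at a stage. For each member the 3 genes with the highest Pearson r over the 15 group means were named, with members and clone or locus symbols left out. Of 145 list genes 142 were measured; Gcm1, Prl3d1 and Prl2c2 were not. Alternatives were other scalings, a filter on dim genes, other probe sets, a replicate block, a trended robust fit, a fit on the compared groups alone and leaving out single arrays.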

Additional observations from a re-analysis of the deposited data

Results flagged for a closer look

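Differences between lines that changed with stage by limma's moderated F test are given here as the day's difference minus the same difference in ESCs, on the log2 scale, at the day with the largest change. For KD minus SCR all 9 genes were called. The change was -6.71 for Nrp1 at day 4 (F test adjusted p = 3.2e-21), -5.39 for Kdr at day 4 (6.6e-18), -4.53 for Cdh5 at day 16 (1.4e-14) and -4.41 for Emcn at day 16 (4.4e-19). It was -3.18 for Sox18 (2.7e-12), -3.12 for Tek (2e-18) and -1.60 for Tie1 (2.6e-05), each at day 8. Pecam1 gave -1.36 at day 16 (3.9e-05), where KD minus SCR was 0.00 while it was 1.37 in ESCs. Flt1 gave 1.32 at day 12 (9.1e-10), close in size to its -1.29 at day 4. Against SCR, Flt1 was the only one of the 9 with a positive value at the day of largest change. This did not hold against WT: there the largest change was -1.96 for Flt1 and 2.19 for Pecam1, both at day 4.

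For SCR minus WT 6 genes were called. At day 12 the change was 2.80 for Pecam1 (F test adjusted p = 9.5e-05), 1.76 for Cdh5 (0.00015) and 1.25 for Emcn (0.00016). At day 16 it was 1.39 for Sox18 (0.00025), 1.15 for Tie1 (0.034) and 0.74 for Kdr (0.049). The F test spans all EB days, and by limma's moderated test no single day of Kdr was called (adjusted p = 0.11 at day 16). For this pair of lines the F test was not repeated with single arrays left out. Single arrays were not tested against their group, since each group holds 3.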

How the results depend on the processing

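Most results kept their direction and side of the threshold. The fit with a replicate block did so for 323 of 324 differences, for example -4.79 for Kdr in KD minus SCR at day 4, and made 1 further call, Flt1 in KD-labelled cells between ESCs and day 4 (0.50, adjusted p = 0.035). Only Flt1, Nrp1 and Cdh5 have a second probe set, so the other members kept their values in that check. With it 306 of 324 results were kept, 11 lost their call, all of Cdh5, and 3 gained one. The 4 reversed were also all of Cdh5, in KD-labelled cells. KD minus WT was then 0.16 at day 12 and 0.02 at day 16, and day 8 was -0.06 from ESCs and -0.09 from day 4. Median centring kept 319, quantile scaling 320, cyclic loess 321, the mean of probe sets 318 and the trended robust fit 324 of 324. Among the members, the mean of probe sets likewise changes only the levels of Flt1, Nrp1 and Cdh5. Cyclic loess shifted the median of all genes by -0.12 in KD minus SCR at day 16. The dim filter removed Tie1 and kept 285 of 288. A fit on the compared groups alone kept 304 of 324 and left 0 called members in SCR minus WT in ESCs and 0 at day 8. Without the 3 first 8-day arrays, chosen after seeing the data, 102 of 108 were kept. Leaving out single arrays kept 1862 of 1944, where 72 lost their call and 10 gained one, and 120 small differences that were never called changed sign. The members called then ranged over 1 to 3 for KD minus SCR in ESCs, 0 to 2 for KD minus WT and 0 to 2 for SCR minus WT in ESCs, 0 to 1 for SCR minus WT at day 8 and 3 to 6 at day 16. Causes were not tested. Having 3 arrays a group limits the precision.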
